A study of Mus musculus with 4 samples.

Results

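The anaphase-promoting complex is the ubiquitin ligase that ends mitosis, and the messages of 10 of its components were followed here: the core subunits Anapc1, Anapc2, Anapc4, Anapc5, Anapc7, Cdc16, Cdc23 and Cdc27 and the coactivators Cdc20 and Fzr1. They were taken by name from the 55357 gene identifiers of the deposited count table, after the version was stripped from each identifier and the rest matched to mouse symbols. All 10 were found under 1 identifier each, and all 10 passed the low-count filter that left 17422 genes for testing. The rule names genes and uses no measured value, but the list was drawn up with earlier results of these data known.

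All 4 libraries were made from testis cells of C57BL/6 mice aged 7 days, in which RNA was crosslinked to protein by 200 mJ per square cm of 254 nm light. The DDX20 RIP group holds 2 libraries of RNA precipitated with an antibody to DDX20, a DEAD-box helicase also called Gemin3. The input group holds 2 libraries of RNA from the same kind of cells, prepared from 10% of the total RNA with no antibody. Because no control antibody library was analysed here, a higher value does not mean binding by DDX20. A higher value means a higher level in the precipitate than in the input after the scaling given below. For small changes this need not be a larger share of all counts. The labels name neither separate animals nor separate cell preparations behind the repeats, and they give the RIP antibody catalogue numbers that differ in 1 character. The p-values therefore measure the spread between these libraries, which may be technical.

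The complex attaches ubiquitin chains to securin, mitotic cyclins and other proteins and so marks them for the proteasome. Cdc20 brings it substrates in early mitosis, and Fzr1, also called Cdh1, takes over in late mitosis and G1. The core has a platform, a catalytic pair and an arc of subunits built from tetratricopeptide repeats (TPR), to which the coactivators dock. At this age the testis holds dividing spermatogonia and dividing Sertoli cells, which all need the complex to leave mitosis. The RNA of both groups came from a mixture of cells. Within a library, the number of cells of a type and the RNA per cell cannot be told apart.

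Total counts were 38458014 and 37927689 in the DDX20 RIP libraries and 21913977 and 21416567 in the input libraries. Levels are given as CPM, that is, counts over the library total scaled to 1000000 and adjusted by the trimmed mean of M values (TMM). Fold changes are DDX20 RIP over input on the log2 scale, and a gene was called where edgeR's quasi-likelihood test gave an adjusted p under 0.05 (Benjamini-Hochberg, over the whole set of tested genes). Of 27 marker genes of germ, Sertoli, Leydig, myoid and stromal, endothelial, macrophage and red blood cells, none had a count of 0 in any library, the germ cell gene Dazl and the Sertoli cell gene Sox9 included. Their lists summed to less in DDX20 RIP than in input in each of the 7 cell types, for instance to 142.6 and 145.7 against 292.3 and 294.4 CPM for 6 germ cell genes, and to 1843 and 1845 against 2721 and 2688 CPM for 5 Sertoli cell genes. Single markers were called in both directions, with 18 lower, 5 higher and 4 not called. Of the germ cell genes 3 were lower, 2 higher and 1 not called, and of the Sertoli cell genes 2 were lower, 2 higher and 1 not called. The sums follow the abundant genes, since the Sertoli cell gene Clu alone had mean levels of 1299 CPM in DDX20 RIP and 2069 CPM in input. The part of these cell types in the values of the complex was not tested.

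With TMM scaling all 10 messages were called higher in the precipitate than in the input. The call rate over all genes tested was 77.3% in either direction and 38.7% for higher in DDX20 RIP. In TMM-scaled CPM, both DDX20 RIP libraries lay above both input libraries for each of the 10. The same held for 42.7% of all genes tested, with 45.3% lying below. The fold changes ran from 0.36 for Cdc16 to 1.90 for Anapc1 with a median of 0.61, against a median of -0.05 over all genes. Of the 10, 3 were also at least 2-fold higher (Anapc1, Anapc4 and Anapc5), a size reached by 17.1% of all genes. Summed over the 10 messages, the level was 3304 ± 25.3 CPM in DDX20 RIP and 1395 ± 8.57 CPM in input (SD, n = 2 libraries each). This sum follows the abundant messages. Anapc1 and Anapc5 had mean levels of 1189 and 847.1 CPM in DDX20 RIP, against 319.6 and 334.55 CPM in input.

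The call depends on the scaling for the smallest changes. With total counts in place of TMM the median of all genes moved from -0.05 to -0.40, and 28.7% of genes were called higher and 50.8% lower. On that scale Cdc16 stood at 0.012 (adjusted p = 0.784) and Cdc20 at 0.023 (adjusted p = 0.595) in edgeR's test, so 8 of the 10 were called higher. As counts over the library total, the DDX20 RIP and input libraries overlapped for Cdc16 and for Cdc20. Upper quartile scaling gave 0.019 for Cdc16 and 0.030 for Cdc20 and also called 8 of the 10, where 28.8% of all genes were called higher and 50.5% lower. Relative to the median of all genes, Cdc16 was 0.41 and Cdc20 0.42 higher with total counts, and 0.41 and 0.43 higher with TMM.

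**Figure D1:**
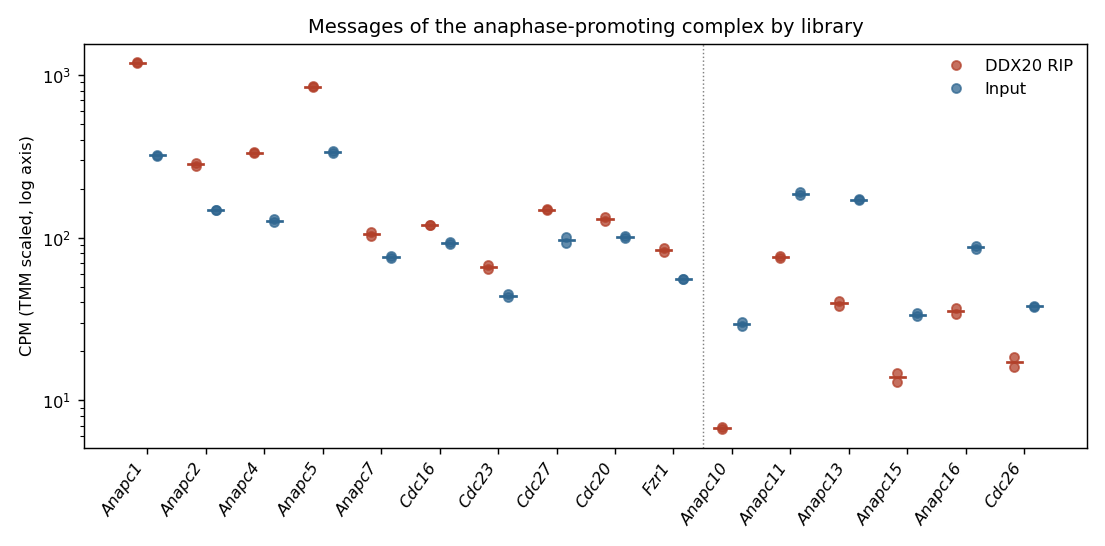
CPM after TMM scaling (log axis) for each library, with DDX20 RIP libraries as red points left of the blue input libraries and a bar at each group's mean (n = 2). The 10 listed messages left of the dotted line lie higher in DDX20 RIP, and the 6 other subunits right of it lie lower, from 6.62 to 77.0 CPM in DDX20 RIP and from 28.8 to 190.4 CPM in input.

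With TMM scaling the platform subunits had the largest increases of the 10, an order that changed with an offset for exonic length, where Anapc2 (1.103) and Cdc20 (1.09) came first. Anapc1 (ENSMUSG00000014355.11), the largest subunit and the scaffold of the complex, had 1193 and 1185 CPM in the DDX20 RIP libraries, against 319.2 and 320.05 CPM in the input libraries. Each pair of libraries lay within a few CPM of its mean, far from the other pair. The fold change was 1.90 ± 0.0248 (SE; edgeR adjusted p = 1.36e-35), a 3.72-fold difference that exceeded the values of 97.8% of all genes tested. Anapc4 (ENSMUSG00000029176.14), a platform subunit that joins the scaffold, had 330.7 and 333.4 CPM in DDX20 RIP and 124.5 and 130.1 CPM in input. Anapc5 (ENSMUSG00000029472.14), a further platform subunit, had 851.0 and 843.2 CPM in DDX20 RIP, against 330.7 and 338.4 CPM in input. For both genes the DDX20 RIP libraries lay above the input libraries, as they did for 42.7% of all genes tested. With TMM scaling the precipitate held more than 2.5 times the input level of both. The fold changes were 1.38 ± 0.0330 for Anapc4 (edgeR adjusted p = 2.09e-28) and 1.34 ± 0.0256 for Anapc5 (edgeR adjusted p = 3.87e-31).

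The catalytic pair moved in opposite directions. Anapc2 (ENSMUSG00000026965.13), the cullin-like subunit that holds the RING protein, had 287.3 and 276.9 CPM in DDX20 RIP and 148.2 and 147.6 CPM in input. That is a fold change of 0.93 ± 0.0329 (edgeR adjusted p = 2.23e-23), just under 2-fold. Anapc11, the RING subunit that Anapc2 carries and that engages the ubiquitin-conjugating enzyme, had 77.0 and 74.5 CPM in DDX20 RIP, against 190.4 and 182.2 CPM in input. Its fold change was -1.30 ± 0.0395 (edgeR adjusted p = 2.74e-25), so the messages of 2 proteins that work as a unit stood on opposite sides of the input level. The coding sequence is 2511 nt long in Anapc2 and 252 nt long in Anapc11. With an offset for coding length Anapc2 stood at 0.19 and Anapc11 at 0.0005, where Anapc11 was not called.

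The 4 TPR subunits had smaller fold changes than the platform. Cdc27 (ENSMUSG00000020687.14), which binds the tails of the coactivators, had 149.0 and 147.6 CPM in DDX20 RIP and 92.9 and 101.1 CPM in input, a fold change of 0.61 ± 0.0412. The SD of its input libraries, 5.85 CPM, was larger than that of the other listed members. Cdc23 (ENSMUSG00000024370.18), which receives the second docking motif of the coactivators, had 68.2 and 64.2 CPM in DDX20 RIP and 45.1 and 43.0 CPM in input, a fold change of 0.59 ± 0.0575. Cdc23 had the lowest level of the 10, and both of its DDX20 RIP libraries lay above both of its input libraries. Anapc7 (ENSMUSG00000029466.12), the TPR subunit at the top of the arc, had 107.7 and 102.6 CPM in DDX20 RIP and 76.6 and 74.5 CPM in input, a fold change of 0.48 ± 0.0442. Cdc16 (ENSMUSG00000038416.16), a TPR subunit in the middle of the arc, had 119.1 and 119.9 CPM in DDX20 RIP and 94.2 and 91.9 CPM in input, the smallest fold change of the 10 at 0.36 ± 0.0405. The highest adjusted p among these 4, from edgeR's test, was 8.81e-10, for Cdc16. With TMM scaling, both DDX20 RIP libraries lay above both input libraries for each of the 4, as they did for 42.7% of all genes tested. None of the 4 reached 2-fold, and none passed a test against a change of 1.5-fold. The 4 members that passed that test, as 24.2% of all genes did in the same direction, were Anapc1, Anapc2, Anapc4 and Anapc5.

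The value of Cdc23 is uncertain for a further reason. Its annotated exons share 1271 bases with those of Kif20a, a mitotic kinesin gene on the opposite strand. The library kit does not mark strand, and how reads in shared bases were counted is not given in the sources used here. Kif20a itself held 6156 and 6073 counts in DDX20 RIP and 2092 and 2119 counts in input, and its part in the value of Cdc23 was not tested. Exons of Cdc20 share 53 bases with Elovl1 and those of Fzr1 share 4 bases with Mfsd12, both on the opposite strand, and for the other 7 no exonic base is shared with another annotated gene.

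Both coactivators were higher, each by less than 2-fold with TMM scaling, although Cdc20 stood at 1.09 with the offset for exonic length. Cdc20 (ENSMUSG00000006398.16), the activator of early mitosis and the target of the spindle checkpoint, had 133.3 and 126.8 CPM in DDX20 RIP, against 102.05 and 98.9 CPM in input. Fzr1 (ENSMUSG00000020235.17), the activator of late mitosis and G1, had 82.0 and 86.4 CPM in DDX20 RIP, against 55.4 and 55.3 CPM in input. For both genes the DDX20 RIP libraries lay above the input libraries with TMM scaling, as for 42.7% of all genes tested. For Cdc20 they overlapped as counts over the library total. The fold changes were 0.37 ± 0.0407 for Cdc20 (edgeR adjusted p = 4.78e-10) and 0.60 ± 0.0502 for Fzr1 (edgeR adjusted p = 5.87e-13). Per kb of transcript, Cdc20 outnumbered Fzr1 in every library, by 2.63 times on average in DDX20 RIP and by 3.09 times in input. The log2 ratio of Cdc20 to Fzr1 was 1.47 and 1.32 in DDX20 RIP and 1.65 and 1.61 in input, a difference of -0.23. An exact two-sided permutation test of this ratio gave p = 0.333, the smallest that 2 against 2 libraries allow.

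**Figure D2:**
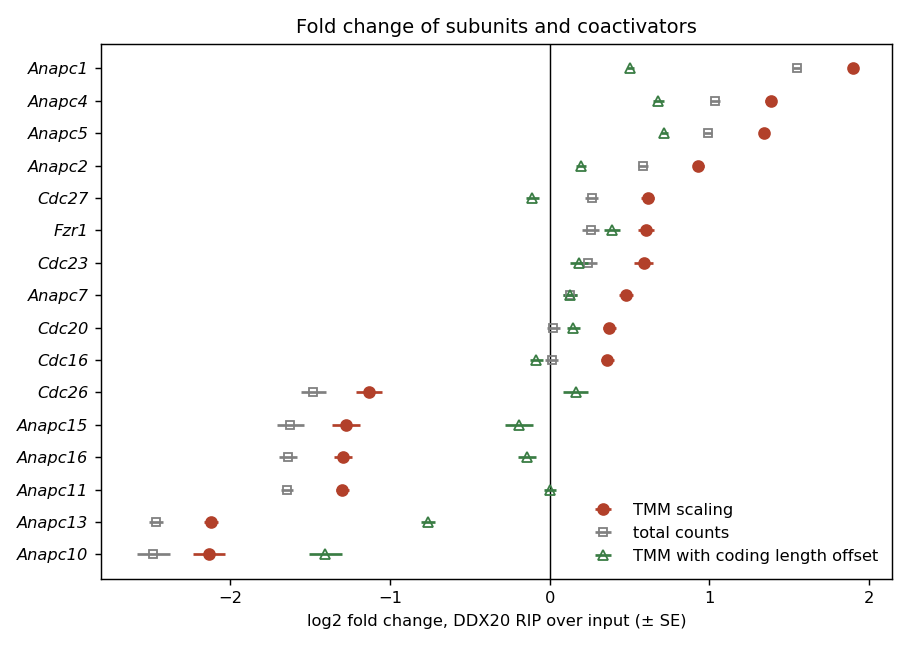
Log2 fold change of DDX20 RIP over input with its SE for the 16 subunits and coactivators, with TMM scaling (filled circles), with total counts (squares) and with TMM and an offset for coding length (triangles). Anapc1 lies at 1.90, 1.55 and 0.50 on these scales, and with the offset the 7 genes from Anapc7 down to Anapc11 lie between -0.19 and 0.16.

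The order of the levels was set per kb of transcript, since longer messages yield more reads. The transcript of best rank in the annotation was used for each gene, and another isoform would move its value. Anapc5 was the most abundant in both groups, at 306.9 ± 2.00 CPM per kb in DDX20 RIP and 121.2 ± 1.99 in input (SD, n = 2). In DDX20 RIP it was followed by Anapc1 (133.0 ± 0.656 CPM per kb), Anapc2 (93.9 ± 2.45) and Anapc4 (86.2 ± 0.505), and then by Cdc20 (72.5 ± 2.56). In input Cdc20 came second, at 56.0 ± 1.26 CPM per kb, before Anapc2 (49.2 ± 0.148), Cdc16 (40.4 ± 0.702), Anapc1 (35.7 ± 0.0704) and Anapc4 (33.0 ± 1.01). Anapc7, Fzr1, Cdc27 and Cdc23 closed the order in both groups, with Cdc23 lowest at 16.0 ± 0.697 CPM per kb in DDX20 RIP and 10.7 ± 0.366 in input. Fzr1 and Cdc27 were the only neighbours in either order whose libraries overlapped, at 27.5 ± 1.01 and 27.3 ± 0.176 CPM per kb in DDX20 RIP and 18.1 ± 0.0030 and 17.9 ± 1.08 in input.

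Proportions between messages of the complex therefore differed between precipitate and input. Anapc1 stood at 1.83 times the level of Cdc20 per kb in DDX20 RIP and at 0.638 times in input. Set against Cdc16, Anapc1 stood at 2.56 times in DDX20 RIP and 0.884 times in input, and set against Anapc5 at 0.433 times in DDX20 RIP and 0.295 times in input. The log2 ratio of Anapc1 to each of the other 9 was higher in both DDX20 RIP libraries than in both input libraries, by 0.51 for Anapc4 to 1.53 for Cdc16. The exact permutation test gave p = 0.333 for each of these ratios, again the smallest possible. These ratios depend on length as well: with an offset for coding length the fold change of Anapc1 (0.50) lay below those of Anapc4 (0.68) and Anapc5 (0.72), and with one for exonic length (0.98) below those of Anapc2, Anapc4, Anapc5 and Cdc20.

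**Figure D3:**
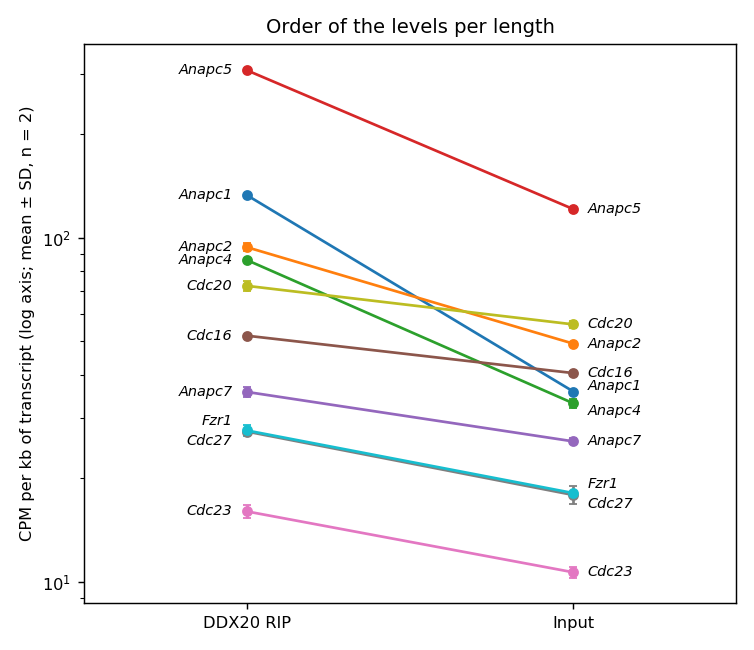
Mean CPM per kb of transcript (log axis) with SD over 2 libraries for the 10 listed messages in DDX20 RIP (left) and input (right). Lines join the same message; Anapc1 is second from the top at 133.0 in DDX20 RIP and below Cdc20, Anapc2 and Cdc16 at 35.7 in input, while Anapc5 is first in both.

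The other subunits of the complex all fell. These are Anapc10, which helps to bind substrates, the RING subunit Anapc11, and the small accessory subunits Anapc13, Anapc15, Anapc16 and Cdc26. All 6 were called lower and at least 2-fold lower, against 38.6% and 23.5% of all genes tested, with a median of -1.30. Anapc10 had 6.62 and 6.83 CPM in DDX20 RIP, against 30.2 and 28.8 CPM in input, a fold change of -2.13 ± 0.1002. Anapc13 had 38.01 and 40.9 CPM in DDX20 RIP, against 170.95 and 171.7 CPM in input, a fold change of -2.12 ± 0.0447. Anapc16 stood at -1.29, Anapc15 at -1.28 and Cdc26 at -1.13, with SEs from 0.0563 to 0.0851. The highest adjusted p of the 6 in edgeR's test was 8.47e-15, for Cdc26. For all 6 both DDX20 RIP libraries lay below both input libraries, as they did for 45.3% of all genes tested. Summed over the 6 the level was 188.6 ± 2.06 CPM in DDX20 RIP and 545.5 ± 3.83 CPM in input (SD, n = 2). Exons of Anapc13 share 239 bases with Cep63 and those of Anapc15 share 1981 bases with Tomt, each on the opposite strand. Cep63 held 721 and 628 counts in DDX20 RIP and 532 and 535 in input, and Tomt 0 and 6 counts in DDX20 RIP and 4 and 5 in input. Anapc13 itself held 1286 and 1383 counts in DDX20 RIP and 4218 and 4148 in input, and Anapc15 440 and 498 in DDX20 RIP and 846 and 794 in input.

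The direction of change in the complex followed the length of the coding sequence. The 10 listed genes have coding sequences of 1479 nt (Fzr1) to 5832 nt (Anapc1), and the 6 other subunits of 222 nt (Anapc13) to 555 nt (Anapc10), so these groups do not overlap in length. Over the 16 genes Spearman's rho between coding length and fold change was 0.876, and over the 10 listed genes it was 0.709. Over 14686 tested genes with a coding sequence it was 0.637. Transcript length gave 0.456 over the 16, 0.624 over the 10 and 0.582 over all genes with a coding sequence. Coding GC content gave -0.15 over the 16, -0.21 over the 10 and 0.035 over all. These are descriptions across genes that share the same 4 libraries. Anapc10 has a transcript of 4591 nt of which 555 nt are coding, and it fell. Its coding sequence is the longest of the 6 other subunits, yet its fold change was the lowest of them, at -2.13. That lies below the lower quartile of -1.19 for all genes with coding sequences above 500 and up to 1000 nt. The size of its fall thus did not follow coding length. Cdc20 has the shortest transcript of the 10, at 1793 nt with 1497 nt coding, and it was higher. Coding sequences above 500 and up to 1000 nt had a median fold change of -0.58 over all genes, and those above 2000 and up to 2500 nt one of 0.68.

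**Figure D4:**
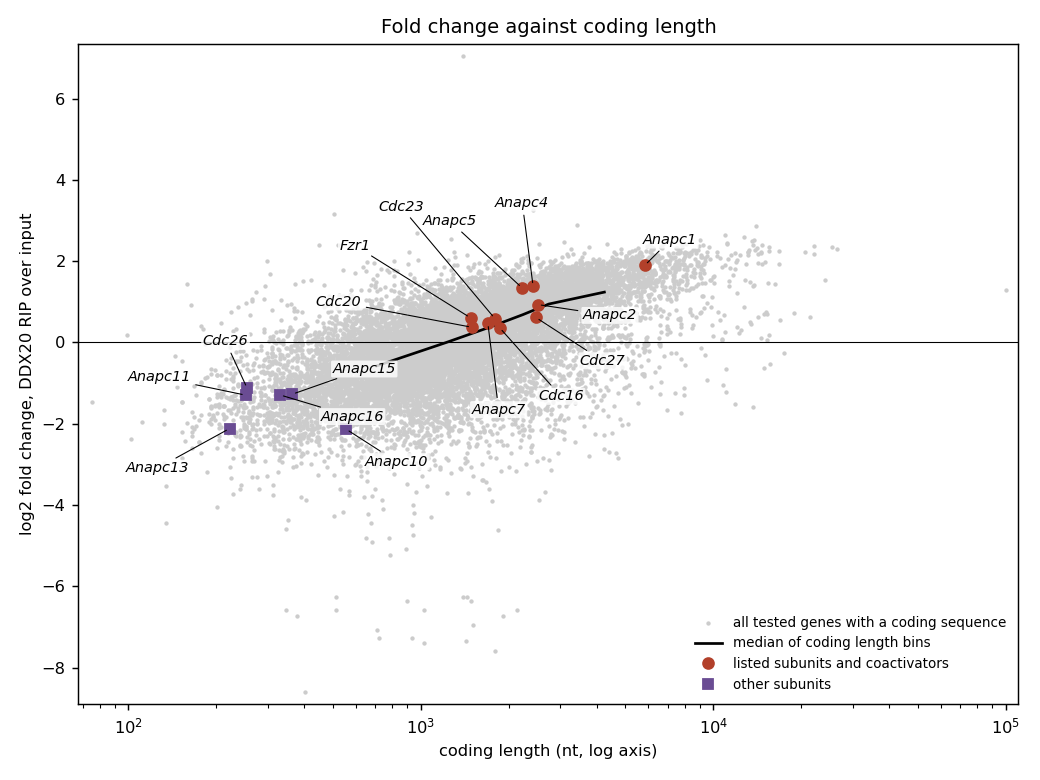
Log2 fold change of DDX20 RIP over input against coding length in nt (log axis) for all tested genes with a coding sequence (grey), the 10 listed messages (red circles) and the 6 other subunits (purple squares). The black line joins the medians of coding length bins between 500 and 6000 nt; Anapc4, at 1.38, and Anapc5, at 1.34, lie above it.

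An offset for coding length left a smaller and more even set of values. It is a smooth trend fitted over the 14686 tested genes with a coding sequence and taken out of the fold change. With it 73.3% of these 14686 genes were called in either direction. Of them 37.8% were called higher and 35.5% lower, against 8 higher and 1 lower of the 10 listed messages. Anapc5 (0.72 ± 0.0240), Anapc4 (0.68 ± 0.0325) and Anapc1 (0.50 ± 0.0229) stayed highest. Fzr1 stood at 0.39, Anapc2 at 0.19, Cdc23 at 0.18, Cdc20 at 0.15 and Anapc7 at 0.13. Cdc16 was no longer called, at -0.084 (adjusted p = 0.0593 in edgeR's test), and Cdc27 was called lower, at -0.11 (adjusted p = 0.0130 in edgeR's test). Of the other subunits, Anapc10 at -1.40 and Anapc13 at -0.76 stayed well below input. Anapc15 at -0.19 and Anapc16 at -0.14 were still called lower, while Anapc11 at 0.0005 and Cdc26 at 0.16 were not called. With an offset for the full exonic length in its place, 40.4% of 17357 genes and 9 of the 10 listed messages were called higher. Cdc23 then stood at -0.048 (adjusted p = 0.467 in edgeR's test). That offset also changed the order, with Anapc2 at 1.103 and Cdc20 at 1.09 ahead of Anapc4 at 1.08, Anapc5 at 1.03 and Anapc1 at 0.98.

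In the wider pathway, 32 genes that are not listed members were followed in 4 groups, the other subunits among them, and 31 were tested. Of these 16 rose, 11 fell and 4 did not pass the test, with a median of 0.19, beside 38.7% higher and 38.6% lower over all genes tested. All 11 that fell have coding sequences of at most 669 nt, and all 16 that rose have at least 699 nt. The numbers called lower were 18 with total counts and 17 under upper quartile scaling, and those called higher were 11 and 12. Over all genes 50.8% were lower and 28.7% higher with total counts, and 50.5% and 28.8% under upper quartile scaling.

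Both ubiquitin-conjugating (E2) enzymes that work with the complex were called lower, as were 38.6% of all genes tested. Ube2s, which extends the chains, had 100.6 and 97.3 CPM in DDX20 RIP, against 147.6 and 154.6 CPM in input, a fold change of -0.61 ± 0.0394. Ube2c, which starts them, had 43.2 and 39.3 CPM in DDX20 RIP, against 78.6 and 78.9 CPM in input, a fold change of -0.93 ± 0.0562. For both genes the DDX20 RIP libraries lay below the input libraries, as for 45.3% of all genes tested. With the offset for coding length Ube2c was still called lower, at -0.17, and Ube2s was not called, at -0.038 (adjusted p = 0.382 in edgeR's test).

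Inhibitors of the complex moved both ways. Bub1b, the checkpoint kinase-like protein BubR1 that blocks Cdc20, had 279.3 and 276.05 CPM in DDX20 RIP, against 107.4 and 105.2 CPM in input, a fold change of 1.39 ± 0.0343 that came to 0.41 with the offset for coding length. Fbxo5, the interphase inhibitor Emi1, rose by 0.44 ± 0.0976, but stood at 0.088 with total counts and did not pass the test there. Mad2l2, which restrains Fzr1, had 31.2 and 31.8 CPM in DDX20 RIP, against 52.6 and 53.4 CPM in input, a fold change of -0.75 ± 0.0635, and was not called with the offset for coding length, at -0.13 (adjusted p = 0.0641 in edgeR's test). Mad2l1, the checkpoint protein Mad2, was at 66.4 and 65.7 CPM in DDX20 RIP and 65.0 and 59.9 CPM in input, and Bub3, the partner of Bub1b, was at 80.6 and 87.2 CPM in DDX20 RIP and 87.3 and 87.3 CPM in input. Neither passed the test (adjusted p = 0.171 and 0.257 in edgeR's test), although with total counts Mad2l1 was called lower at -0.27 and Bub3 at -0.41. With the offset for coding length both were called higher, Mad2l1 at 0.72 and Bub3 at 0.21, and with that for exonic length both were called lower, at -0.48 each. Fbxo43, the meiotic inhibitor Emi2, held 10 counts in each DDX20 RIP library and 0 and 4 counts in input and was not tested.

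Among 18 substrates and targets 14 rose, 2 fell and 2 did not pass the test, with a median of 0.59, beside 38.7% higher and 38.6% lower over all genes tested. With total counts 10 were called higher and 7 lower, where 28.7% and 50.8% of all genes were. Espl1, which encodes separase, the protease that cuts cohesin once securin is gone, had 308.1 and 295.95 CPM in DDX20 RIP, against 70.4 and 68.1 CPM in input. This fold change of 2.12 ± 0.0373 exceeded that of Anapc1. Its inhibitor Pttg1, the securin gene, had 38.4 and 40.2 CPM in DDX20 RIP, against 60.2 and 58.7 CPM in input, a fold change of -0.60 ± 0.0598. A protease and its inhibitor thus stood on opposite sides of the input level, with coding sequences of 6354 and 597 nt. With the offset for coding length Espl1 was still called higher, at 0.69, and Pttg1 was not called, at 0.068 (adjusted p = 0.312 in edgeR's test).

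Tpx2, a spindle assembly factor that Fzr1 targets, had 508.4 and 504.1 CPM in DDX20 RIP and 165.6 and 172.9 CPM in input, a fold change of 1.58 ± 0.0298 that came to 0.95 with the offset for coding length. Rrm2, a subunit of ribonucleotide reductase, had 230.8 and 223.2 CPM in DDX20 RIP and 103.0 and 99.1 CPM in input, a fold change of 1.17 ± 0.0367. For both genes the DDX20 RIP libraries lay above the input libraries, as for 42.7% of all genes tested. The cyclin B1 gene Ccnb1 rose by 0.23 ± 0.0367 and the thymidine kinase gene Tk1 by 0.26 ± 0.0410 with TMM, while with total counts both reversed, to -0.12 and -0.089, and were called lower. Gmnn, the gene of the replication inhibitor geminin, had 41.4 and 41.0 CPM in DDX20 RIP, against 61.2 and 57.9 CPM in input, a fold change of -0.53 ± 0.0592. With the offset for coding length it was not called, at 0.11 (adjusted p = 0.1004 in edgeR's test). Ccna2 and Ccnb2, the cyclin A2 and B2 genes, did not pass the test with TMM, at 0.019 and -0.020 (adjusted p = 0.691 and 0.760 in edgeR's test). With total counts both were called lower, at -0.33 and -0.37.

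**Figure D5:**
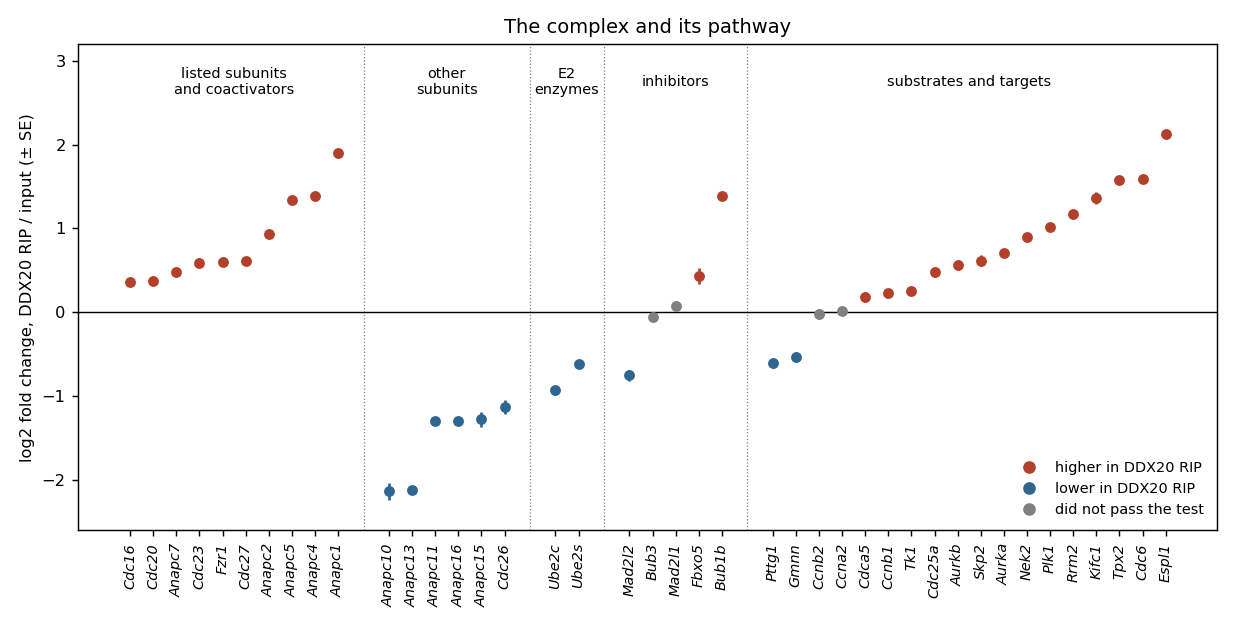
Log2 fold change of DDX20 RIP over input with its SE (TMM scaling) for the 10 listed messages and 31 tested genes of the pathway, ordered within each group. Red genes were called higher, blue genes lower, and grey genes did not pass the test; Espl1 is highest at 2.12 and Anapc10 lowest at -2.13.

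In the GENCODE M21 annotation of GRCm38, Anapc1 lies on chromosome 2 from 128610104 to 128687391 and has 48 exons in the transcript used. Anapc4 lies on chromosome 5 from 52834012 to 52867797, and Anapc5 on the same chromosome from 122787459 to 122821339. Cdc20 lies on chromosome 4 from 118432901 to 118437352 and Fzr1 on chromosome 10 from 81366222 to 81378516. Anapc2 is on chromosome 2, Anapc7 on chromosome 5, Cdc16 on chromosome 8, Cdc23 on chromosome 18 and Cdc27 on chromosome 11, so the 10 listed genes lie on 7 chromosomes.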

How the data were processed

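The authors deposited unnormalised counts of reads by gene for the 4 libraries. The submitters' processing notes name GRCm38 and the tools featureCounts, SAMtools, STAR 2.7.2b, cutadapt 4.1 and Trimmomatic 0.36; their settings and the annotation release were not given in the sources used. Between 65.4% and 67.4% of nonzero counts are even, a pattern that counting the mates of a pair separately would give, and depth would then be overstated. GENCODE M21 (GRCm38) gave symbols for 94.08% of identifiers, and lengths from the transcript of best APPRIS rank; only 35 identifiers share its version, so the gene models counted can differ, and coordinates and lengths are those of M21. Replicates differed by 1.15 (DDX20 RIP) and 1.19 times (input) the sampling noise of halved counts and were kept separate.

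Genes were kept by filterByExpr, scaled by TMM and tested with edgeR 4.0.16 in R 4.3.3 (robust quasi-likelihood). Each SE is the fold change over the square root of F. Alternatives used limma 3.58.1, DESeq2 1.42.0, other scalings and filters, halved counts, a replicate block, left-out libraries, a 1.5-fold test and loess length offsets (span 0.3). On simulated data for DDX20 RIP over input, edgeR recovered 62% of 50 genes changed 1.5-fold and 77.6% of 49 changed 2-fold, among 16969 genes. Few genes were changed there, while 77.3% were called in the real data, so these rates need not hold in the real data. Members and lists were chosen with earlier results of these data known; beside members and other subunits, the 5 most abundant genes per list and call are named, with a mean CPM of at least 10.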

Additional observations from a re-analysis of the deposited data

How the results depend on the processing

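Of 160 values of the 10 members under 16 alternatives, 147 kept direction and call, 10 kept direction only and 3 reversed; RLE scaling, both other filters, DESeq2, limma-voom, halved counts and each left-out library left all 10 called higher (as were 22.5% to 41.6% of all genes). The test against 1.5-fold called 4 of the 10, 9 pathway genes higher, and 4210 genes higher and 4426 lower over the whole table. The replicate block called 10 of the 10 higher, beside 38.7% of all genes, and changed no call among the genes named. Same-numbered libraries did not deviate together (correlation -0.0010), so the numbers are not taken as pairs. With the coding length offset 1 member (Cdc27, -0.11) was lower and 6 pathway genes were; Cdc16 (-0.084), Anapc11 (0.0005), Cdc26 (0.16), Bub3 (0.21), Ccna2 (-0.10), Pttg1 (0.068) and Gmnn (0.11) reversed. With the exonic length offset Cdc23 (-0.048), Mad2l1 (-0.48), Ccnb2 (0.85), Pttg1 (0.053) and Gmnn (0.38) reversed. Total counts and upper quartile scaling called 18 and 17 pathway genes lower and reversed Mad2l1 (-0.27 and -0.26), Ccna2 (-0.33 and -0.32), Ccnb1 (-0.12 and -0.11) and Tk1 (-0.089 and -0.082). Near 0, Mad2l1 (-0.0041) and Ccna2 (-0.065) reversed with the CPM filter, Ccna2 with halved counts (-0.030), and Ccnb2 with RLE (0.0032), DESeq2 (0.0034) or no filter (0.034). With 1 library left out, Bub3 ranged from -0.075 to 0.036 (highest without DDX20 RIP replicate 1), Ccna2 from -0.029 (without input replicate 2) to 0.091, and Ccnb2 from -0.11 to 0.096 (above 0 without DDX20 RIP replicate 1, at 0.042, or input replicate 1). Where a library was left out, the lone library is assumed to vary like the other group. The cause of changes other than the offsets' own construction was not tested.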
